A study of Homo sapiens with 9 samples.

Results

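The 44 genes described here repair the DNA lesions made by platinum drugs or carry cells past them. They were taken by symbol from a fixed list and make up 44 of the 20030 genes in the count table, of which 15406 had at least 1 read. The list holds 4 checkpoint kinases, 10 genes of the Fanconi anemia pathway, 2 genes of structure-specific nucleases, 7 of homologous recombination, 14 of nucleotide excision repair, 3 of mismatch repair and 4 of translesion synthesis. RNA was sequenced from MHCC97L, a human hepatocellular carcinoma (HCC) cell line, without drug treatment, and from lines derived from it by growth in drug. MHCC97L-Src was grown in rising doses of saracatinib, an inhibitor of the Src family kinases, until it was stably resistant to 4 μmol/L. MHCC97L-Oxa was stably resistant to 2 μmol/L oxaliplatin, a platinum drug. The labels give the treatment of the MHCC97L-Src libraries as saracatinib and that of the MHCC97L-Oxa libraries as oxaliplatin. Whether drug was present when RNA was taken is not given in the sources used here. Current exposure and acquired resistance can therefore not be told apart. Each line gave 3 libraries, 9 in all. Each resistant line was derived from the same parental line, and whether it grew from 1 clone or a mixed population is not given in the sources used here. The authors describe 3 independent experiments for MHCC97L and MHCC97L-Src, without saying what was independent. The labels do not say whether the 3 libraries of a line came from separate cultures. The p-values below therefore measure only the spread between these libraries.

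Oxaliplatin and related drugs bind purine bases and link neighbouring bases of a strand, and less often bases on opposite strands. Nucleotide excision repair cuts out the links within a strand. Links between strands stall replication forks and are unhooked by the Fanconi anemia pathway with structure-specific nucleases, after which homologous recombination rebuilds the broken strand and translesion polymerases copy across the remaining adduct. The kinases ATR and ATM stop the cell cycle while this goes on, and mismatch repair proteins bind some platinum adducts. Low ERCC1 has long been studied as a marker of response to platinum drugs.

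The gene counts of a library summed to between 16970486 and 18209213 reads. Genes differ in the share of G and C bases in their transcripts, and the libraries differed in the levels of genes of low GC content. Whether this arose in the cells or in library preparation was not tested. Spearman's rho across genes between GC content and a gene's deviation from its mean over the 9 libraries was -0.781 in MHCC97L replicate 1, 0.299 in replicate 2 and -0.255 in replicate 3. It lay between 0.166 and 0.699 in the 6 libraries of the resistant lines. MHCC97L replicate 1 stood apart toward AT-rich genes, while MHCC97L replicate 2 lay with the resistant lines, and comparisons with MHCC97L are given below also without these libraries. Of 12 hepatocyte markers, ALB, AFP, APOB and TTR were at 0 reads in every library, while KRT8 had at least 28881 reads in each, and only the keratins KRT8 and KRT18 of this list had at least 10 reads in every library. Of 6 leukocyte markers, PTPRC, CD3E and LYZ were at 0 in every library, and the list summed to 21 to 30 reads in MHCC97L against 108 to 122 in the MHCC97L-Src libraries and 100 to 109 in those of MHCC97L-Oxa, most of it CD14. Of 6 fibroblast markers, COL1A1 and DCN made up most of a sum of 1920 to 3567 reads in MHCC97L, 1194 to 1577 in the MHCC97L-Src libraries and 2443 to 2758 in those of MHCC97L-Oxa, while COL1A2 and PDGFRA had at most 3 reads. Of 5 endothelial markers, KDR and CLDN5 were at 0 and the list summed to 18 to 39 reads.

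The repair genes span a wide range of GC content, from 36.3% in BRCA2 to 63.8% in XRCC3, measured on the longest transcript of each gene in GENCODE 29 on GRCh38. 22 of the 44 lie under 45%, a limit chosen after the values were seen. The 4 coding stretches below show this contrast within the Fanconi anemia pathway. They are the middle 60 bases of the longest coding exon of its members with the lowest (FANCB, FANCM) and the highest (FANCE, FANCG) GC content, on the strand of the gene, with G and C in capitals.
FANCB, chrX:14865005-14865064, minus strand, exon 3 of 10: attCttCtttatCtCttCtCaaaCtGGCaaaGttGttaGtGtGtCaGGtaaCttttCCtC
FANCM, chr14:45175993-45176052, plus strand, exon 14 of 23: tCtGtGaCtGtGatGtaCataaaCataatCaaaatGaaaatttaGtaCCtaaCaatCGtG
FANCE, chr6:35456020-35456079, plus strand, exon 2 of 10: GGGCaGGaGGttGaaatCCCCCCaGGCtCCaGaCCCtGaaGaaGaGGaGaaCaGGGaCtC
FANCG, chr9:35075579-35075638, minus strand, exon 10 of 14: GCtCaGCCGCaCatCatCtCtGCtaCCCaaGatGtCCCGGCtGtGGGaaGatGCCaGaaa
G and C made up 36.7% of the FANCB stretch and 30.0% of the FANCM stretch, against 60% and 56.7% of those of FANCE and FANCG. Summed over the 22 members under 45% GC, MHCC97L replicates 1, 2 and 3 had 11667, 1739 and 5160 reads. The same sum was 1829, 1405 and 1939 in MHCC97L-Src, while MHCC97L-Oxa had 1925, 2181 and 2237. Replicates 1 and 3 of MHCC97L were therefore above all 6 resistant libraries, and replicate 2 was among them. Over the 22 members of at least 45% GC, the sums of the 9 libraries ran from 29535 to 34281. Single members varied more than this sum. After scaling to library size, the highest MHCC97L library exceeded the lowest by a median of 1.63-fold, up to 3.25-fold.

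**Figure D1:**
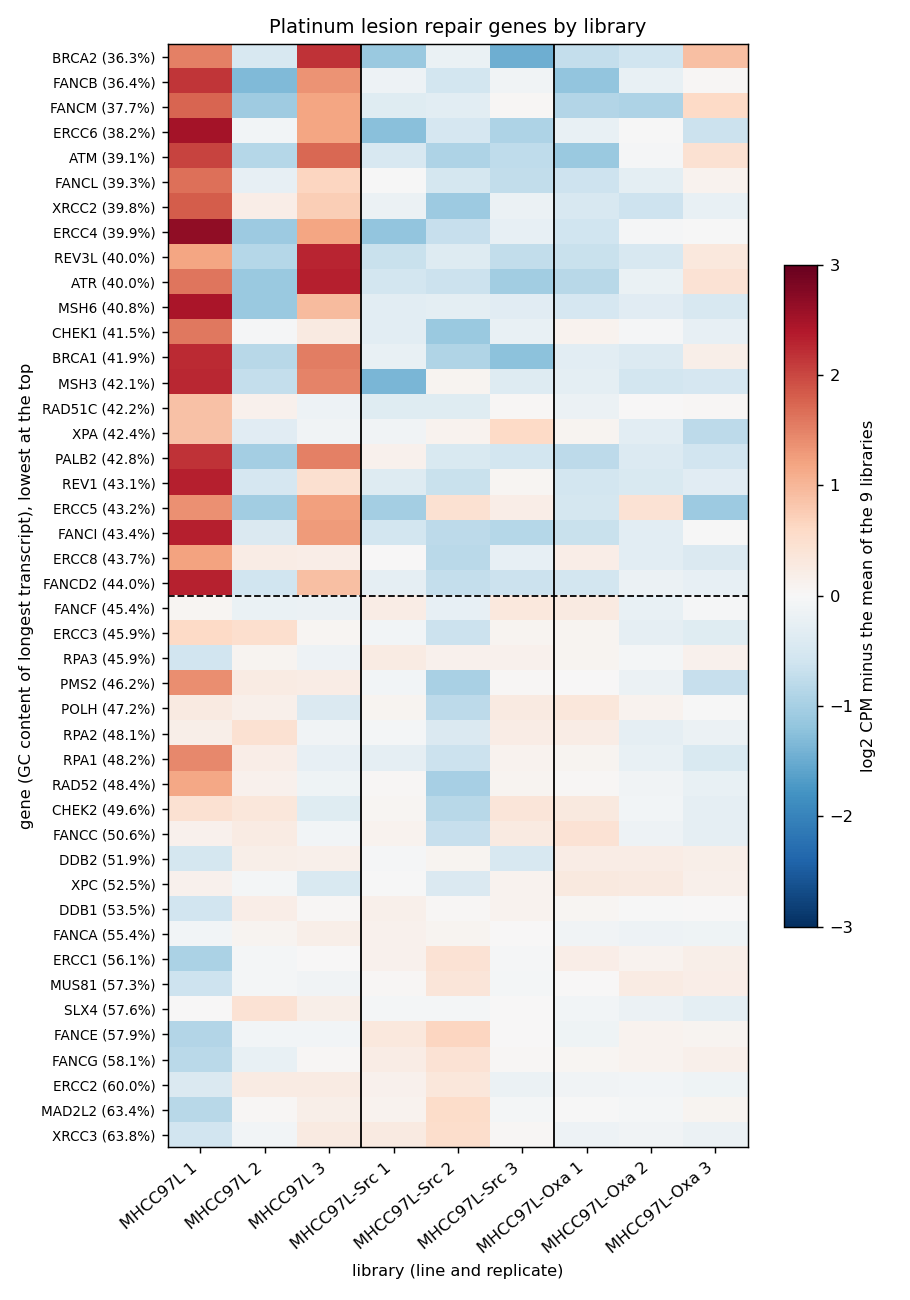
The log2 CPM (counts scaled to library size) of each of the 44 repair genes (rows, lowest GC content at the top) in each of the 9 libraries (columns), less the gene's mean over the libraries, with 2 reads added to every count; red is above and blue below that mean, and the dashed line marks 45% GC. Above the dashed line MHCC97L replicates 1 and 3 are red in nearly every gene and replicate 2 is not. Below it the libraries differ less in most genes, though MHCC97L replicate 1 stands above the others in RPA1, PMS2 and RAD52.

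Each resistant line was compared with MHCC97L to ask which repair genes differed from the parental line, and both comparisons use the same 3 MHCC97L libraries. In MHCC97L-Src, 15 of the 43 repair genes tested were lower at an unadjusted p under 0.05 with a fold change over 2-fold, and none was higher. These 15 were ATM, ATR and CHEK1 among the kinases, FANCD2, FANCI and FANCL of the Fanconi anemia pathway, and BRCA1, BRCA2, PALB2 and XRCC2 of homologous recombination. ERCC4 and ERCC6 of excision repair, MSH3 and MSH6 of mismatch repair and REV3L of translesion synthesis complete the list. They were 34.9% of the repair genes tested, against 18.9% of all 12037 genes tested that were lower by this threshold and 5.74% that were higher. After Benjamini-Hochberg adjustment over all genes, edgeR's quasi-likelihood test called 0 of 43, against 2.13% of all genes, and the smallest adjusted p was 0.0918 for ERCC6. At an unadjusted p under 0.05 whatever the fold, the count was again 15, against 29.5% of all genes. DESeq2's Wald test called 10 of 43 at an adjusted p under 0.05, all lower, against 17.6% of all genes, and limma on log2 FPKM called 0. Log2 fold changes of the repair genes ran from -2.57 to 0.65 with a median of -0.73, where the median of all genes was -0.16. In bulk RNA, fewer cells that express a gene and less RNA per cell cannot be told apart.

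In MHCC97L-Oxa, 9 of 43 repair genes were lower by the unadjusted threshold and 0 were higher, against 11.5% and 4.63% of all 12064 genes tested. They were FANCD2, FANCI, BRCA1, PALB2, XRCC2, ERCC6, MSH3, MSH6 and REV1. They made up 20.9% of the members tested. edgeR's quasi-likelihood test called 0 of 43 at an adjusted p under 0.05, against 0.953% of all genes, with a smallest adjusted p of 0.177 for XRCC2. At an unadjusted p under 0.05 whatever the fold, 10 met it, the 9 above and ERCC3, against 22.4% of all genes. DESeq2 called XRCC2 alone at an adjusted p under 0.05, against 7.4% of all genes, and limma on log2 FPKM called 0. The median log2 fold change was -0.60, against -0.19 over all genes.

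By CPM, read counts scaled to the size of the library, the groups did not overlap for 9 repair genes in MHCC97L-Src. CHEK1, FANCI, XRCC2, ERCC6, ERCC8 and PMS2 were lower in all 3 MHCC97L-Src libraries than in any MHCC97L library (12.2% of all genes), and FANCE, MUS81 and RPA3 were higher (17.5%). In MHCC97L-Oxa, FANCA, SLX4, XRCC2, ERCC8 and PMS2 were lower without overlap (9.93% of all genes), and FANCG, MUS81, ERCC1 and XPC were higher (18.2%). The 6 and 5 lower members are 14% and 11.6% of those tested, close to these backgrounds, and the 3 and 4 higher members, 6.98% and 9.3%, lie below them.

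Gene coordinates below are those of GENCODE 29 on GRCh38. Among the checkpoint kinases, ATM (chr11:108222484-108369102), which responds to double-strand breaks, had 393, 45 and 292 reads in MHCC97L replicates 1, 2 and 3. It had 58, 38 and 52 in MHCC97L-Src, compared with 40, 88 and 120 in MHCC97L-Oxa. The groups overlapped through MHCC97L replicate 2. The log2 fold change was -2.16 ± 0.70 (SE) in MHCC97L-Src, 4.46-fold lower, and -1.52 ± 0.74 in MHCC97L-Oxa (edgeR adjusted p of 0.112 and 0.249). ATR (chr3:142449235-142578826), which senses single-stranded DNA at stalled forks, had 179, 22 and 271 reads in MHCC97L and 33, 28 and 25 in MHCC97L-Src, while MHCC97L-Oxa had 29, 47 and 72. Here too replicate 2 alone of the parental libraries was as low as the resistant lines, and the log2 fold changes were -2.31 ± 0.78 and -1.64 ± 0.80. CHEK1, the kinase activated by ATR, had 1101, 316 and 411 reads in MHCC97L and 255, 134 and 296 in MHCC97L-Src, with no overlap and a log2 fold change of -1.29 ± 0.50. In MHCC97L-Oxa its 365, 343 and 287 reads overlapped those of MHCC97L. CHEK2 (chr22:28687743-28742422), the kinase activated by ATM and the member of this group with the highest GC content (49.6%), had 636, 520 and 332 reads in MHCC97L. It had 422, 204 and 563 in MHCC97L-Src, compared with 532, 416 and 354 in MHCC97L-Oxa, and its log2 fold changes of -0.24 ± 0.41 and -0.18 ± 0.33 were within their errors.

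In the Fanconi anemia pathway, FANCD2 and FANCI form the clamp that is ubiquitinated at a crosslink. FANCD2 (chr3:10026414-10101930) had 1458, 170 and 505 reads in MHCC97L and 210, 141 and 176 in MHCC97L-Src, while MHCC97L-Oxa had 186, 245 and 227. MHCC97L replicate 1 was by far the highest library and replicate 2 lay within the resistant range. FANCI (chr15:89243949-89317261) had 1306, 167 and 580 reads in MHCC97L and 152, 118 and 132 in MHCC97L-Src, with no overlap. In MHCC97L-Oxa FANCI had 151, 198 and 235 reads. The log2 fold change of FANCI was -2.19 ± 0.63 in MHCC97L-Src, 4.57-fold lower, and -1.76 ± 0.62 in MHCC97L-Oxa (edgeR adjusted p of 0.0987 and 0.199). That of FANCD2 was -1.86 ± 0.65 and -1.64 ± 0.64.

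The other Fanconi genes belong to the core complex that ubiquitinates this clamp or recruit it. FANCM (chr14:45135940-45200890), the translocase that brings the complex to DNA, had 78, 8 and 48 reads in MHCC97L and 14, 13 and 21 in MHCC97L-Src, compared with 10, 10 and 31 in MHCC97L-Oxa, the fewest reads of the pathway. FANCB (chrX:14835961-14873069) followed the same order, with 161, 11 and 84 reads in MHCC97L and 13 to 33 in the resistant libraries. FANCL, the ubiquitin ligase itself, had 217, 50 and 99 reads in MHCC97L and 36 to 67 in the resistant libraries. The core genes of higher GC content had other values. FANCE (chr6:35452356-35467103) had 351, 543 and 568 reads in MHCC97L and 699, 806 and 609 in MHCC97L-Src, while MHCC97L-Oxa had 550, 662 and 636. Its log2 fold change in MHCC97L-Src was 0.65 ± 0.34 (edgeR adjusted p of 0.227), the highest of all repair genes in that comparison. FANCG (chr9:35073835-35080016) had 1161, 1543 and 1955 reads in MHCC97L and 1968 to 2202 in the resistant libraries, with log2 fold changes of 0.54 ± 0.28 and 0.40 ± 0.25. FANCA (chr16:89737549-89816657), another core subunit, varied little, with 1305, 1302 and 1464 reads in MHCC97L and 1321, 1171 and 1316 in MHCC97L-Src, compared with 1205, 1195 and 1170 in MHCC97L-Oxa. FANCC and FANCF, also of the core, ranged over the 9 libraries from 183 to 467 and from 107 to 191 reads, with log2 fold changes from -0.15 to 0.22 in both comparisons.

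Both genes of the structure-specific nucleases are GC-rich. SLX4 (chr16:3581181-3611598), a scaffold that holds nucleases at crosslinks, had 679, 808 and 711 reads in MHCC97L and 570, 512 and 645 in MHCC97L-Src, while MHCC97L-Oxa had 596, 574 and 513. MUS81 (chr11:65857126-65867653), a nuclease that cuts branched DNA, had 737, 958 and 965 reads in MHCC97L and 1006, 1140 and 1019 in MHCC97L-Src, compared with 1059, 1270 and 1199 in MHCC97L-Oxa. MUS81 was higher in every resistant library than in any parental one, by a log2 fold change of 0.36 ± 0.27 and 0.40 ± 0.24 (edgeR adjusted p of 0.376 and 0.306). That of SLX4 was -0.25 ± 0.27 and -0.39 ± 0.24.

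In homologous recombination, BRCA1 and BRCA2 act on broken ends before strand exchange. BRCA1 (chr17:43044295-43170245) had 635, 65 and 360 reads in MHCC97L and 100, 55 and 52 in MHCC97L-Src, while MHCC97L-Oxa had 99, 96 and 139. Its log2 fold changes were -2.19 ± 0.73 and -1.62 ± 0.69 (edgeR adjusted p of 0.115 and 0.218). BRCA2 (chr13:32315474-32400266), the member with the lowest GC content, had 48, 9 and 71 reads in MHCC97L and 5, 10 and 4 in MHCC97L-Src, compared with 8, 9 and 28 in MHCC97L-Oxa. These few reads limit what can be said of BRCA2, whose log2 fold change was -2.57 ± 0.78 in MHCC97L-Src and -1.47 ± 0.79 in MHCC97L-Oxa. PALB2, which joins BRCA1 to BRCA2, had 285, 26 and 168 reads in MHCC97L and 33 to 59 in the resistant libraries.

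XRCC2 and XRCC3, which support strand exchange, stood at opposite ends of GC content (39.8% and 63.8%). XRCC2 (chr7:152644779-152676165) had 558, 160 and 242 reads in MHCC97L and 121, 57 and 130 in MHCC97L-Src, while MHCC97L-Oxa had 103, 96 and 123. It was lower in all 6 resistant libraries than in any parental one, by -1.52 ± 0.53 and -1.54 ± 0.48 on the log2 scale (edgeR adjusted p of 0.122 and 0.177). XRCC3 (chr14:103697609-103715504) had 776, 970 and 1298 reads in MHCC97L and 1212, 1333 and 1122 in MHCC97L-Src, compared with 966, 1020 and 953 in MHCC97L-Oxa. RAD51C had 89 to 140 reads in the resistant libraries and 121 to 273 in MHCC97L, and RAD52, which anneals single strands, 68 to 173 and 148 to 395. Neither met a threshold.

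**Figure D2:**
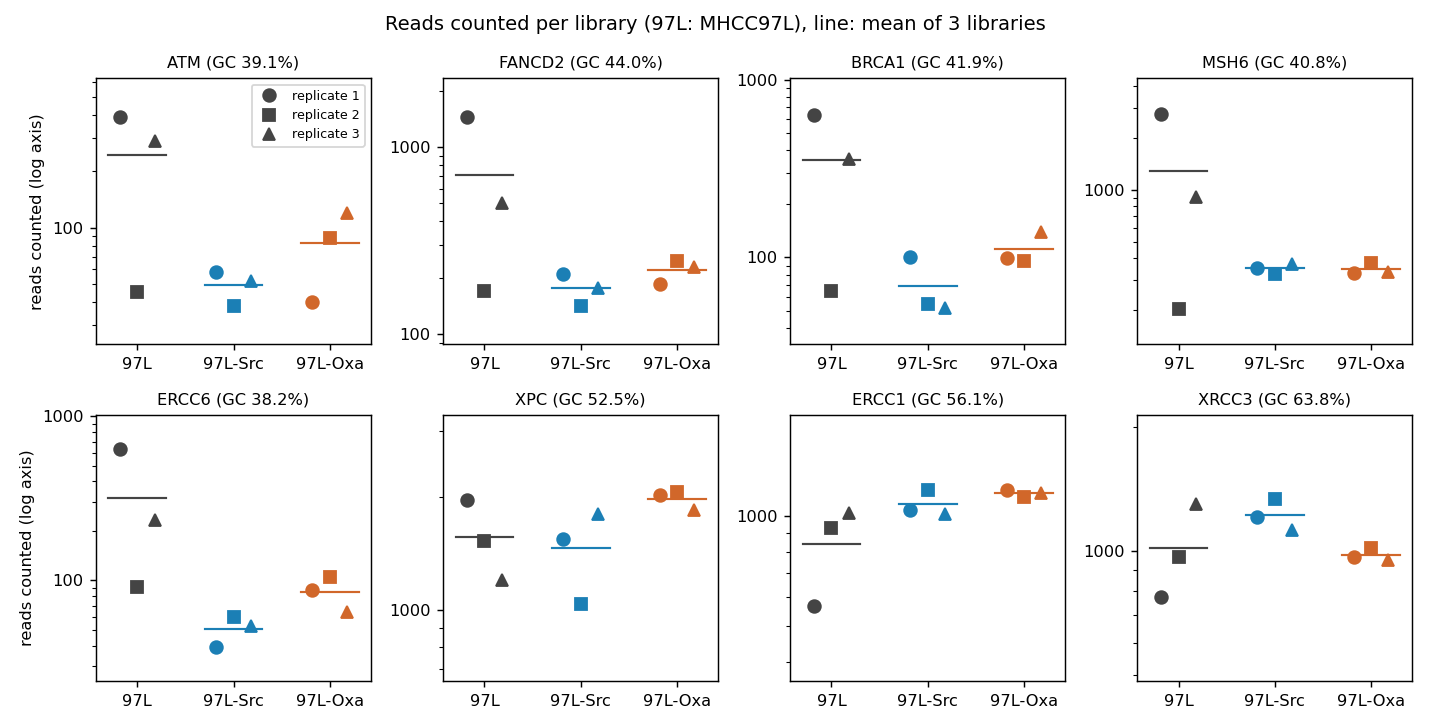
Reads counted per library (log axis) for 8 repair genes, one panel each, with symbols for replicates 1 to 3 of MHCC97L (grey), MHCC97L-Src (blue) and MHCC97L-Oxa (orange) and a line at each mean. In ATM, FANCD2, BRCA1, MSH6 and ERCC6 the square of MHCC97L replicate 2 sits with or near the resistant lines and below replicates 1 and 3, while XPC, ERCC1 and XRCC3, of higher GC content, vary much less.

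In nucleotide excision repair, the heterodimer of ERCC1 and ERCC4 makes the incision on the upstream side of the lesion and also acts at crosslinks. ERCC1 (chr19:45407333-45478828) had 568, 930 and 1020 reads in MHCC97L and 1041, 1179 and 1016 in MHCC97L-Src, while MHCC97L-Oxa had 1177, 1131 and 1157. It was higher without overlap in MHCC97L-Oxa, by 0.45 ± 0.29 on the log2 scale (edgeR adjusted p of 0.34), and MHCC97L replicate 1 was the low library. In MHCC97L-Src the log2 fold change of ERCC1 was 0.47 ± 0.32. ERCC4 (chr16:13920157-13952345) had 410, 25 and 135 reads in MHCC97L and 23, 30 and 49 in MHCC97L-Src, compared with 38, 58 and 57 in MHCC97L-Oxa. Its log2 fold changes were -2.32 ± 0.85 and -1.83 ± 0.82, opposite in sign to those of its partner.

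The lesion is found by XPC, or by DDB1 with DDB2, and verified by XPA. XPC (chr3:14145147-14178783) had 1968, 1529 and 1203 reads in MHCC97L and 1547, 1040 and 1803 in MHCC97L-Src, while MHCC97L-Oxa had 2027, 2065 and 1852. Its CPM was higher in all MHCC97L-Oxa libraries than in any parental one, although the counts before normalization overlapped, and the log2 fold change was 0.35 ± 0.22 (edgeR adjusted p of 0.327). XPC was the one repair gene that edgeR called in MHCC97L-Oxa when MHCC97L replicate 1 was left out, with a log2 fold change of 0.58 and an adjusted p of 0.0296. DDB2 (chr11:47214465-47239240) had 1354, 1948 and 2003 reads in MHCC97L and 1641, 1631 and 1298 in MHCC97L-Src, compared with 2116, 2155 and 2011 in MHCC97L-Oxa. DDB1 (chr11:61299451-61342596) had 7290 to 10964 reads per library and log2 fold changes of 0.18 ± 0.25 and 0.10 ± 0.23. XPA (chr9:97674909-97697357) had 160, 60 and 74 reads in MHCC97L and 69, 73 and 124 in MHCC97L-Src, while MHCC97L-Oxa had 85, 66 and 45, so that the groups overlapped, and its log2 fold changes were -0.02 ± 0.49 and -0.55 ± 0.48.

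ERCC6 and ERCC8 act where lesions stall transcription. ERCC6 (chr10:49455368-49539538) had 634, 91 and 232 reads in MHCC97L and 39, 60 and 53 in MHCC97L-Src, compared with 87, 104 and 64 in MHCC97L-Oxa. MHCC97L-Src lay wholly below MHCC97L, while MHCC97L-Oxa overlapped it. The log2 fold change of ERCC6 was -2.48 ± 0.67 in MHCC97L-Src, 5.58-fold lower, and -1.86 ± 0.64 in MHCC97L-Oxa (edgeR adjusted p of 0.0918 and 0.196). ERCC8 had 136, 60 and 62 reads in MHCC97L and 25 to 62 in the resistant libraries. The helicases ERCC2 and ERCC3, which open the DNA, and the subunits RPA1, RPA2 and RPA3, which coat the open strand, had log2 fold changes from -0.89 to 0.36 in the 2 comparisons. In RPA1 a single library stood out, with 4238 reads in MHCC97L replicate 1 against 782 to 1578 in the other 8.

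In mismatch repair, MSH6 (chr2:47695530-47810101), which takes part in binding mismatches, had 2770, 203 and 907 reads in MHCC97L and 351, 325 and 373 in MHCC97L-Src, while MHCC97L-Oxa had 329, 377 and 333. MHCC97L replicate 2 was the lowest of the 9 libraries and replicate 1 the highest. The log2 fold changes were -1.72 ± 0.71 and -1.84 ± 0.73 (edgeR adjusted p of 0.154 and 0.209). MSH3 (chr5:80654648-80876460), its counterpart for larger loops, had 238, 25 and 129 reads in MHCC97L and 15, 40 and 34 in MHCC97L-Src, compared with 36, 31 and 31 in MHCC97L-Oxa, with log2 fold changes of -1.96 ± 0.76 and -1.95 ± 0.70. PMS2, the nuclease subunit of this pathway, had 524, 208 and 213 reads in MHCC97L and 79 to 190 in the resistant libraries, without overlap in CPM.

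Among the translesion genes, POLH (chr6:43576150-43615660), the polymerase that inserts bases across platinum adducts, had 706, 571 and 401 reads in MHCC97L and 538, 267 and 664 in MHCC97L-Src, while MHCC97L-Oxa had 692, 597 and 538. Its log2 fold changes of -0.10 ± 0.37 and 0.13 ± 0.28 were within their errors. REV3L (chr6:111299028-111483715) and MAD2L2 (chr1:11674480-11691650) encode the catalytic and an accessory subunit of polymerase zeta, which extends past the adduct. REV3L had 119, 24 and 236 reads in MHCC97L and 27, 30 and 28 in MHCC97L-Src, compared with 29, 34 and 59 in MHCC97L-Oxa, with log2 fold changes of -2.02 ± 0.73 and -1.61 ± 0.75. MAD2L2 had 2353, 3816 and 4384 reads in MHCC97L and 3935, 4881 and 3795 in MHCC97L-Src, while MHCC97L-Oxa had 3858, 3816 and 4104, with log2 fold changes of 0.37 ± 0.31 and 0.14 ± 0.27. REV1, the scaffold of the bypass polymerases, had 498, 60 and 125 reads in MHCC97L and 47 to 95 in the resistant libraries.

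The members below the unadjusted threshold were those of low GC content. In MHCC97L-Src all 15 were among the 21 tested under 45% GC, ERCC5 being untested (71.4%, against 43.9% of all genes under 45% GC). In MHCC97L-Oxa all 9 were among these 21 (42.9%, against 25.3%). Of the 22 members of at least 45% GC, 0 were lower by this threshold in either comparison, against 5.24% and 3.98% of all genes of that GC content. Across the 43 members, Pearson's r between GC content and log2 fold change was 0.82 in MHCC97L-Src and 0.79 in MHCC97L-Oxa, and across all genes with a GC value 0.63 and 0.58. These are descriptions, since the genes share the same 6 libraries in each comparison. The median log2 fold change of the members under 45% GC was -1.72 in MHCC97L-Src and -1.62 in MHCC97L-Oxa, against -1.29 and -1.05 of all genes under 45% GC. That of the members of at least 45% GC was 0.01 and 0.02, against 0.15 and 0.06. Between the resistant lines r was 0.48 across 42 members and 0.35 across all genes.

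**Figure D3:**
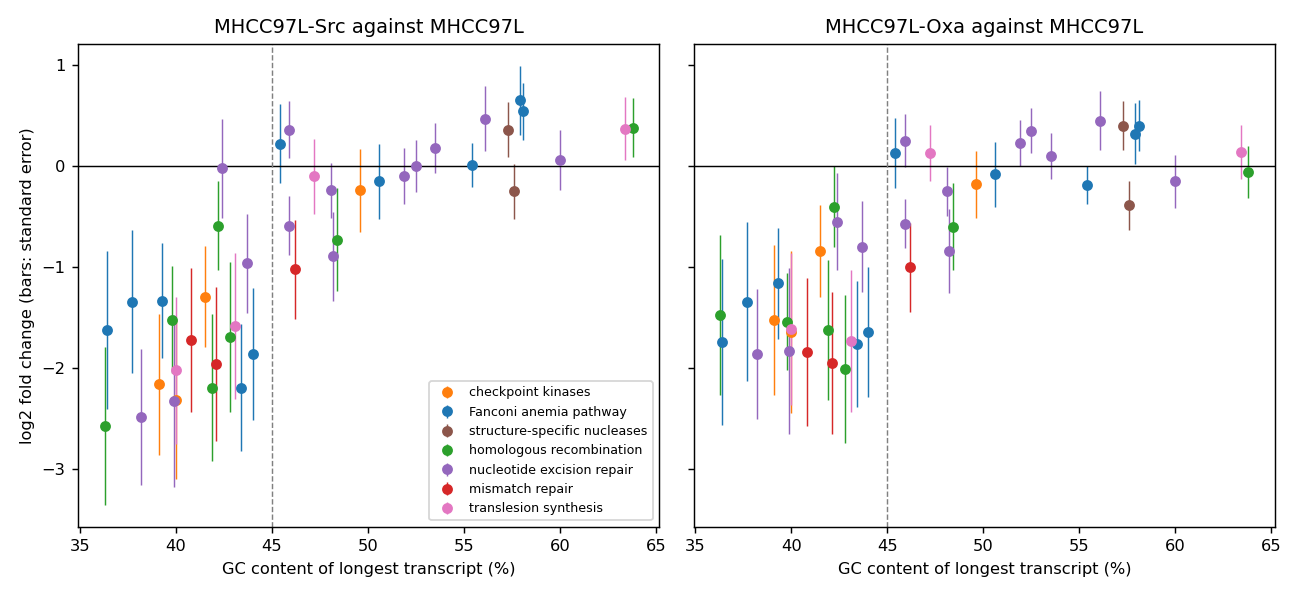
Log2 fold change of each tested repair gene (vertical axis, with its standard error) against the GC content of its longest transcript (horizontal axis, in percent) in MHCC97L-Src and MHCC97L-Oxa against MHCC97L, coloured by role; the dashed line marks 45% GC. All 21 genes left of the dashed line are below 0 in both panels, and those right of it lie on both sides of 0, from -1.02 to 0.65.

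When each library's counts were corrected for its own dependence on GC content and transcript length, the median difference of the members under 45% GC was nearer 0. With such offsets edgeR called 0 of 43 members at an adjusted p under 0.05 in MHCC97L-Src (10.6% of all genes) and 0 of 43 in MHCC97L-Oxa (12.9%). FANCI alone was still lower by the unadjusted threshold in MHCC97L-Src (5.68% of all genes), by -1.13 ± 0.37 on the log2 scale, and 0 members were in MHCC97L-Oxa (3.64%). BRCA2 went from -2.57 to -1.12 ± 0.67 and ERCC6 from -2.48 to -0.88 ± 0.28 in MHCC97L-Src. MSH6 went from -1.72 to -0.13 ± 0.34, and FANCM changed sign, from -1.34 to 0.21 ± 0.38. XPA, of 42.4% GC, also moved upward, but away from 0, from -0.02 to 0.72 ± 0.24, the highest value of any member with the offsets. FANCE went from 0.65 to 0.28 ± 0.14, and MAD2L2 from 0.37 to -0.15 ± 0.10. With the offsets the median of the members was -0.21 in MHCC97L-Src and -0.30 in MHCC97L-Oxa, against -0.05 and -0.08 over all genes. Of the 21 members under 45% GC, 18 were still below 0 in MHCC97L-Src and 19 in MHCC97L-Oxa. Of all genes under 45% GC, 2345 of 4234 and 2465 of 4270 were below 0. The medians were -0.63 and -0.58 for these members and -0.09 and -0.11 for all such genes. Pearson's r between GC content and log2 fold change was still 0.37 and 0.42 across the 43 members with the offsets. Across all genes with a GC value it was 0.05 in both comparisons. The offsets were fitted on all tested genes with a GC value, so all-gene values near 0 follow from the fit. They are therefore not an independent background for the members.

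**Figure D4:**
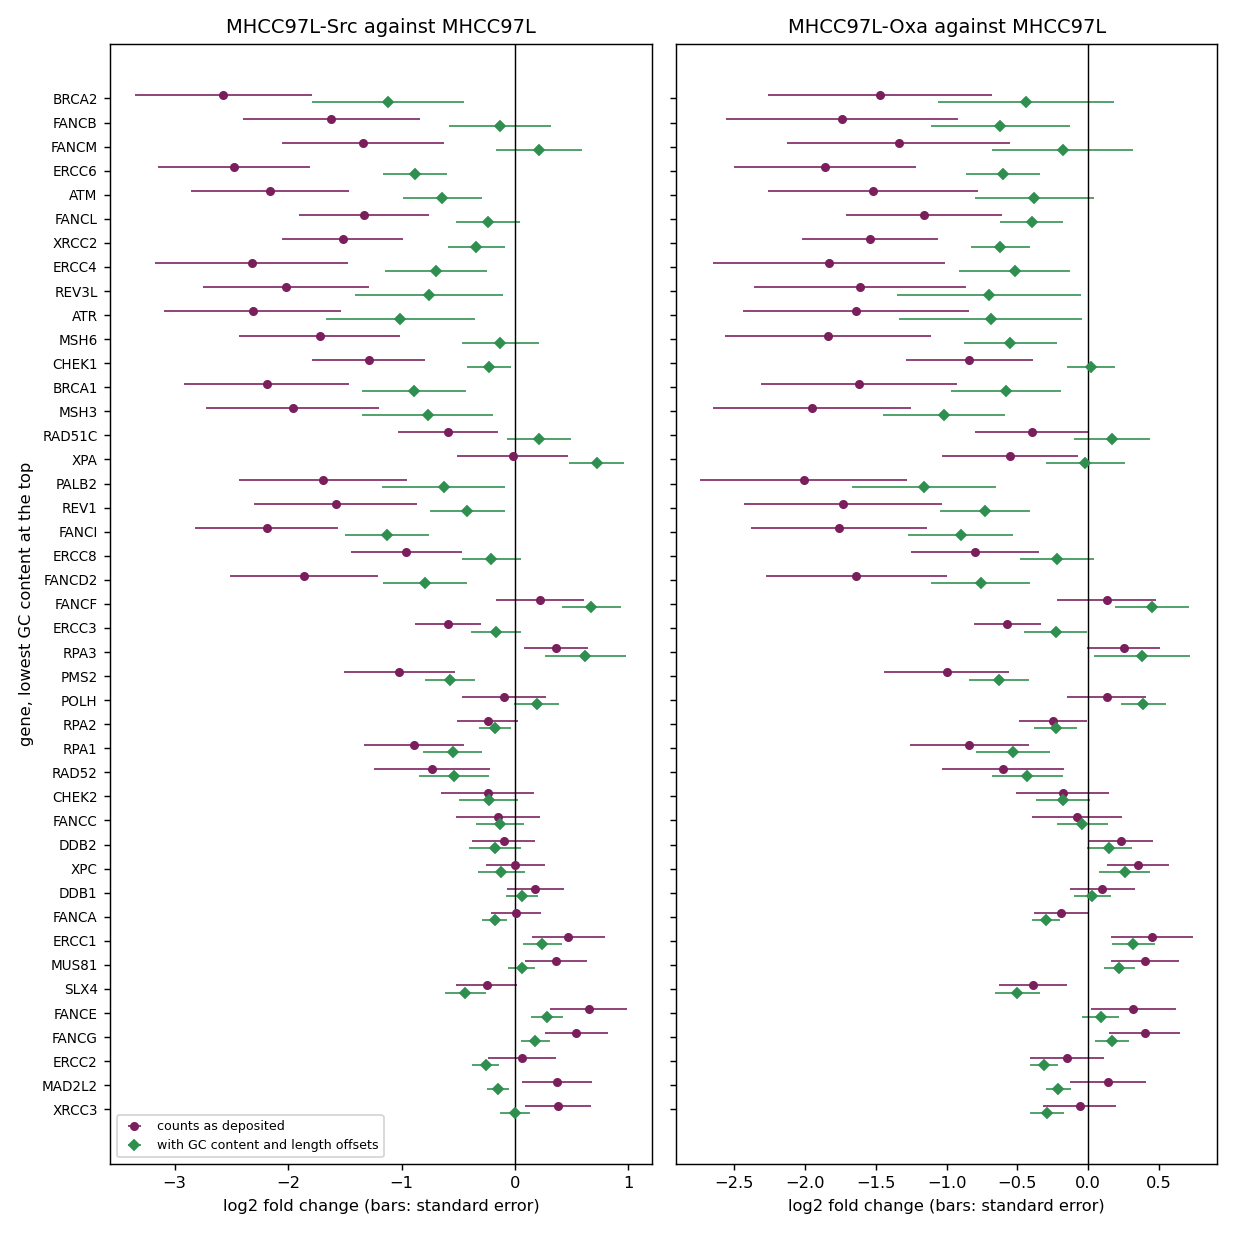
Log2 fold change of each tested repair gene (rows, lowest GC content at the top) in MHCC97L-Src and MHCC97L-Oxa against MHCC97L, with standard errors, from the counts as deposited (circles) and with offsets for GC content and transcript length (diamonds). The diamonds of the genes at the top lie much nearer 0 than their circles; the median of the genes shown moves from -0.73 to -0.21 in the MHCC97L-Src panel, and in the MHCC97L-Oxa panel from -0.60 to -0.30.

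The libraries of a line differed most within MHCC97L. Among members under 45% GC, the highest MHCC97L library exceeded the lowest by a median of 7.58-fold, up to 14.5-fold, against 1.67-fold within MHCC97L-Src and 1.57-fold within MHCC97L-Oxa. Over all genes under 45% GC the medians were 4.71-fold, 1.62-fold and 1.39-fold. MHCC97L replicate 1 was above all 6 resistant libraries in 21 of these 21 members, as it was in 88.8% of all genes under 45% GC. Replicate 3 was above them in 19 of 21, against 56.1% of such genes. Replicate 2 was above them in 3 of 21, within their range in 12 and below it in 6, against 15.4%, 64.7% and 19.9% of such genes.

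Leaving out either library changed the calls. Without MHCC97L replicate 1, 0 of 43 members were called at an adjusted p under 0.05 in MHCC97L-Src (5.52% of all genes), and 7 were lower by the unadjusted threshold (7.85%). These were ATM, ATR, FANCI, BRCA1, BRCA2, ERCC6 and REV3L. In MHCC97L-Oxa, XPC alone was called at an adjusted p under 0.05 without that library (18.5% of all genes), and 0 members were lower by the unadjusted threshold (2.03%). Without MHCC97L replicate 2, edgeR called 18 of 43 in MHCC97L-Src (27.8% of all genes) and 14 of 43 in MHCC97L-Oxa (22.1%), all lower. All were among the 21 members under 45% GC. Of all genes under 45% GC, 2364 of 4355 and 1853 of 4365 were called in these fits. The 14 were ATM, ATR, FANCB, FANCD2, FANCI, BRCA1, PALB2, XRCC2, ERCC4, ERCC6, MSH3, MSH6, REV1 and REV3L, and the 18 added CHEK1, FANCL, FANCM and BRCA2. ATM, for example, had a log2 fold change in MHCC97L-Src of -1.64 (adjusted p of 0.168) without replicate 1 and of -2.59 (adjusted p of 0.00205) without replicate 2.

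The 2 resistant lines were also set against each other, a comparison that does not use MHCC97L. edgeR's quasi-likelihood test called 0 of 42 members at an adjusted p under 0.05 (4.64% of all 11994 genes tested), DESeq2 called 0 (7% of all genes), and limma on log2 FPKM called 0. By the unadjusted threshold 0 were lower and 0 higher in MHCC97L-Src, against 2.52% and 1.49% of all genes. At an unadjusted p under 0.05 whatever the fold there were 3, XRCC3, XPC and DDB2, against 19.5% of all genes. Log2 fold changes ran from -0.67 in ATR to 0.54 in XPA, with a median of -0.02 that equals that of all genes. XRCC3 was 0.44 ± 0.14 higher in MHCC97L-Src (edgeR adjusted p of 0.12), and XPC and DDB2 were -0.34 ± 0.15 and -0.34 ± 0.14 (adjusted p of 0.243 and 0.228). XPC and DDB2 were lower in MHCC97L-Src without overlap in CPM (12.7% of all genes), and FANCA, SLX4, XRCC3 and MSH6 were higher (13.9%). The counts of FANCA, SLX4 and MSH6 before normalization overlapped. Their log2 fold changes were 0.20 ± 0.11, 0.14 ± 0.14 and 0.12 ± 0.15. With offsets for GC content and length, XRCC3 passed the adjusted threshold (9.64% of all genes), at 0.28 ± 0.07 and an adjusted p of 0.0491. ATM and ATR differed by -0.65 ± 0.38 and -0.67 ± 0.38, and BRCA1 by -0.59 ± 0.31, and none of these passed a threshold. BRCA2 and ERCC5 had too few reads to be tested here.

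Levels can be compared between genes only per length, and the deposited FPKM, fragment counts scaled to transcript length and to sequencing depth, was used for this. This scaling takes no account of GC content, whose part in the differences between genes below was not tested. The median of the 44 members' mean FPKM over the 9 libraries was 2.16, against 1.84 over all genes with at least 1 read. DDB1 was highest at a mean of 90.8 FPKM, followed by MAD2L2 at 71.2, DDB2 at 37.4 and FANCG at 31.3. DDB1 measured 86.9 ± 17 FPKM in MHCC97L, 93.6 ± 9.11 in the MHCC97L-Src libraries and 91.9 ± 0.811 in those of MHCC97L-Oxa (SD, n = 3 libraries each). BRCA2 was lowest at 0.0761 FPKM, then FANCM at 0.13, REV3L at 0.151 and FANCB at 0.258. Within the recombination genes XRCC3 was highest, with 15.3 ± 3.68 FPKM in MHCC97L, 19 ± 1.95 in the MHCC97L-Src libraries and 14.8 ± 0.661 in those of MHCC97L-Oxa. Within the excision repair genes ERCC4 was lowest, with 1.17 ± 1.27, 0.211 ± 0.103 and 0.306 ± 0.0747 FPKM. Partners differed in mean level: ERCC1 measured 5.99 ± 1.66, 8.29 ± 0.562 and 8.53 ± 0.293 FPKM in the 3 lines, above ERCC4 in each. The size of this gap varied. In MHCC97L replicate 1 ERCC1 was at 4.09 FPKM and ERCC4 at 2.59, while ERCC4 was at most 0.757 in the other libraries. REV3L stood far below MAD2L2. In both pairs the partner of higher GC content had the higher FPKM. ATM and ATR, at 0.38 and 0.4 FPKM, were each below CHEK1 and CHEK2, at 4.06 and 4.27, and the ranges over libraries overlapped within each of these pairs.

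**Figure D5:**
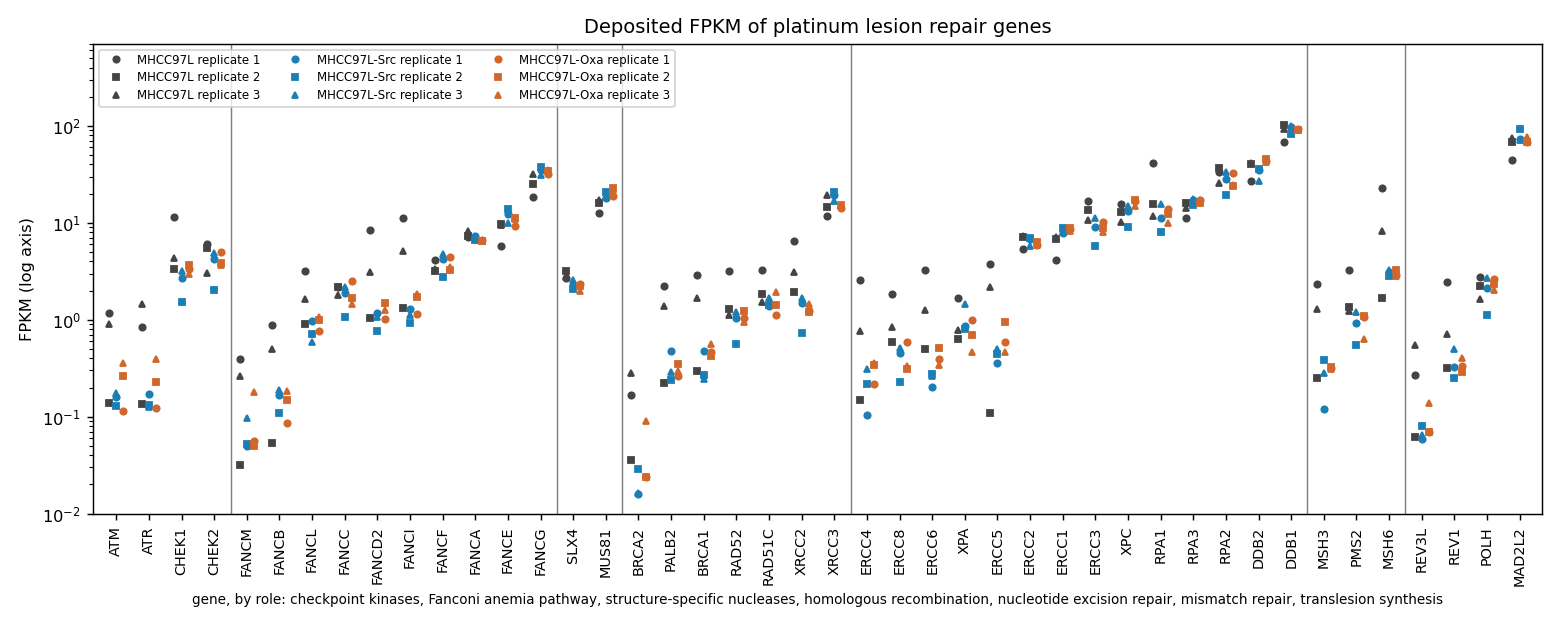
Deposited FPKM (log axis) of the 44 repair genes in each of the 9 libraries, grouped by role from checkpoint kinases to translesion synthesis and ordered within a role by the mean over libraries; colours are the lines and symbols the replicates. Mean levels run from 0.0761 FPKM in BRCA2 to 90.8 in DDB1, and the libraries of MHCC97L are most spread in the genes of low level.

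The same comparisons were made for 72 further repair genes and 18 proliferation genes. Of the other repair genes, 31 of 71 tested were lower and 1 higher by the unadjusted threshold in MHCC97L-Src, against 18.9% and 5.74% of all genes. In MHCC97L-Oxa 20 of 69 were lower and 1 higher, against 11.5% and 4.63%. edgeR called 0 of them at an adjusted p under 0.05 in either comparison. With the offsets for GC content and length, 7 were lower and 2 higher by the unadjusted threshold in MHCC97L-Src, and 3 lower and 1 higher in MHCC97L-Oxa. At an adjusted p under 0.05 edgeR with the offsets called 1 lower and 1 higher in MHCC97L-Src (10.6% of all genes), and 4 lower and 1 higher in MHCC97L-Oxa (12.9%). Without the offsets, the gene higher by the unadjusted threshold in both comparisons was RMI2, a subunit of the complex that dissolves recombination intermediates. It had 370, 396 and 355 reads in MHCC97L and 773, 625 and 849 in MHCC97L-Src, compared with 782, 818 and 706 in MHCC97L-Oxa, with log2 fold changes of 1.10 ± 0.28 and 1.04 ± 0.24 (edgeR adjusted p of 0.0821 and 0.102). The lowest p among those that were lower in MHCC97L-Src belonged to CLSPN, which couples ATR to CHEK1, with 555, 124 and 386 reads in MHCC97L and 64, 41 and 65 in MHCC97L-Src. CUL4A, the cullin of the ubiquitin ligase that holds DDB1 and DDB2, was the 1 gene of the list called between the resistant lines. It was lower in MHCC97L-Src by -0.75 ± 0.16 on the log2 scale (adjusted p of 0.0253), with 522, 401 and 642 reads against 986, 1014 and 824 in MHCC97L-Oxa. Of the proliferation genes, 6 of 18 were lower by the unadjusted threshold in MHCC97L-Src (18.9% of all genes) and 2 of 18 in MHCC97L-Oxa (11.5%), and edgeR called 0 at an adjusted p under 0.05. With the offsets 1 of 18 was lower by the unadjusted threshold in each comparison, and edgeR called 1 in MHCC97L-Src and 2 in MHCC97L-Oxa at an adjusted p under 0.05, all lower. Their median log2 fold change in MHCC97L-Src was -0.53, from -2.58 to 0.45, and 4 of 18 were above 0. In MHCC97L-Oxa the median was -0.51, from -2.10 to 0.04, and 1 of 18 was above 0. Many repair genes are made mainly in dividing cells, and BUB1, a mitotic checkpoint kinase of 42.5% GC, followed the same order as the AT-rich repair genes, with 1840, 154 and 646 reads in MHCC97L and 110 to 249 in the resistant libraries. BUB1 was the lowest of the list. MCM2, a replicative helicase subunit of 58.1% GC, did not follow that order. It had 6608, 10107 and 10705 reads in MHCC97L and 11387, 12016 and 11387 in MHCC97L-Src, compared with 9804, 9357 and 9216 in MHCC97L-Oxa. AURKA and TYMS, of 46.6% and 49.8% GC, had log2 fold changes of -0.87 ± 0.32 and -0.50 ± 0.20 in MHCC97L-Oxa (edgeR adjusted p of 0.201 and 0.213). The part of proliferation in the repair genes' differences was not tested.

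Some of these counts are less certain than others. ERCC5, which encodes the nuclease of the downstream incision, was not tested, since the 9 libraries held 0 to 10 reads of it. Its deposited FPKM, 2.01 ± 1.81 in MHCC97L, 0.437 ± 0.0718 in the MHCC97L-Src libraries and 0.669 ± 0.249 in those of MHCC97L-Oxa, was 29.3 times what these counts give for the length of its longest transcript, where the same ratio was 0.246 to 1.3 in the other 43 members. Its exons are shared with BIVM-ERCC5, a read-through gene on the same strand that had 0 reads in every library. The exons of 21 members overlap those of another protein-coding gene, in 19 of them on the opposite strand, by up to 1853 bases between XRCC3 and KLC1, 1593 between ERCC1 and CD3EAP and 1469 between MSH6 and FBXO11. The libraries were stranded, but whether reads were counted by strand is not given in the sources used here. PMS2, CHEK2 and FANCD2 have pseudogene copies of close sequence elsewhere in the genome, and how reads that fit several places were counted is not given either.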

How the data were processed

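The labels describe poly(A) selected, stranded libraries read from both ends. The submitters' processing notes name Trimmomatic 0.36, HISAT2 2.2.1.0 and GRCh38.p12, and the counting and FPKM programs are not given in the sources used here. The authors deposited raw counts of reads per gene and FPKM values for the same 20030 genes. From the counts, each pair of lines was compared with edgeR 4.0.16 (filterByExpr with a minimum count of 10, TMM, quasi-likelihood test, 6 libraries, two-sided), with Benjamini-Hochberg adjustment over all genes tested. The unadjusted threshold requires p under 0.05 before adjustment and a log2 fold change beyond 1 in either direction. Standard errors came from the fold change and the F statistic of the test. GC content and length came from the longest GENCODE 29 transcript for 19343 of 20030 genes, 13518 matched by RefSeq accession and 5825 by symbol, and 43 or 42 of the members tested had a value in each comparison. The offsets were natural splines with 5 degrees of freedom each. Alternatives were DESeq2 1.42.0, limma 3.58.1 on log2(FPKM + 1) and log2(FPKM + 0.1), other scalings and filters, a replicate block, all 9 libraries in one fit, and leaving out each library. R 4.3.3, Python 3.11.15, pandas 2.3.3 and matplotlib 3.10.9 were used. The test was checked on simulated counts with a common dispersion for all genes and no dependence on GC content. That check does not cover the unequal spread of the lines or the GC differences between libraries. Sequences were read from GENCODE 29 transcripts. Depth was similar in all libraries, and 3 reads, the most a count of 0 allows, equal 0.165 to 0.177 CPM, for counting error only.

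Members and lists were chosen with earlier results of these data known. By a fixed rule, full values are given for members with an adjusted p under 0.05, the 3 smallest p-values in each direction of each comparison, ERCC1, ERCC4, XPA, XPC, DDB2, BRCA1, BRCA2, FANCD2, ATM, ATR, MSH6, POLH and REV3L, and the lowest and highest FPKM of each role. Other members are given by counts and ranges, and FANCB, FANCL, CHEK1, PALB2, RPA1, PMS2, REV1, ERCC8, RAD51C and RAD52 were described after their values were seen.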

Additional observations from a re-analysis of the deposited data

How the results depend on the processing

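Brackets with 2 numbers below give all genes that met the threshold, of those tested. In MHCC97L-Src against MHCC97L, edgeR called 0 members at an adjusted p under 0.05. DESeq2 called 10 (2114 of 12037), no filter on low counts 2 (702 of 15167) and all 9 libraries in one fit 4 (1956 of 12232). Leaving out 1 library at a time gave 0 to 18, the highest without MHCC97L replicate 2 (3419 of 12288). The 15 members lower by the unadjusted threshold became 1 with limma on log2(FPKM + 1), 3 on log2(FPKM + 0.1), 1 with the GC content and length offsets, 0 with the offsets and the replicate block, and 0 with the offsets without MHCC97L replicate 1 (an alternative chosen after seeing the data). Leaving out 1 library gave 7 without MHCC97L replicate 1 (956 of 12171) to 20 without MHCC97L replicate 2 (3434 of 12288). In MHCC97L-Oxa, the 0 members at an adjusted p under 0.05 became 1 with DESeq2 (893 of 12064). With the offsets without MHCC97L replicate 1 they became 2, ERCC2 and XPC, 1 of them higher (2378 of 12168). With 1 library left out there were 0 to 14, the highest without MHCC97L replicate 2 (2705 of 12256). The 9 members by the unadjusted threshold became 15 with all 9 libraries in one fit, 0 with limma on log2(FPKM + 1), 2 on log2(FPKM + 0.1), 0 with the offsets, 0 with the offsets and the replicate block and 0 with the offsets without MHCC97L replicate 1. Leaving out 1 library gave 0 without MHCC97L replicate 1 (247 of 12168) to 19 without MHCC97L replicate 2 (3052 of 12256). There were 2 without MHCC97L-Oxa replicate 1, 2 without replicate 2 and 4 without replicate 3. Between the resistant lines, the 0 members at an adjusted p under 0.05 became 1, XRCC3, with the offsets (1156 of 11994). With 1 library left out there were 0 to 2. These were DDB2 without MHCC97L-Src replicate 2 (1033 of 12140), and XRCC3 and XPC without replicate 3 (1617 of 12121). The cause of these changes was not tested. Other scalings and the stricter filter left these counts within 1.5 times the main count. Over the alternatives, 11, 6 and 7 of the named members changed sign at least once in the 3 comparisons. BRCA2, FANCM and ERCC5, with the fewest reads, are the members whose depth limits them most.

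The labels number the libraries of each line 1 to 3, and whether the numbers pair them is not given. The correlations of same-numbered libraries' deviations were 0.171, 0.217 and -0.65 between MHCC97L-Src and MHCC97L, -0.215, -0.134 and 0.444 between MHCC97L-Oxa and MHCC97L, and 0.031, -0.085 and -0.292 between the resistant lines. Their means in these 3 comparisons were -0.088, 0.031 and -0.115. For libraries of different number the means were 0.032, -0.017 and 0.058. These few correlations cannot decide whether the libraries were paired. With the replicate block edgeR called 3 members at an adjusted p under 0.05 in MHCC97L-Src (FANCI, BRCA2 and ERCC6), against 988 of all 12037 genes tested. In MHCC97L-Oxa 4 members were then lower by the unadjusted threshold in place of 9.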
